A study of Mus musculus with 24 samples.

Results

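The cytosolic ribosome of mouse glial progenitor cells was followed through its protein genes. Members were all genes whose annotated symbol starts with Rpl or Rps followed by a number, with Rplp or with Rpsa, leaving out pseudogenes, the Rps6 kinases and Rps19bp1. The rule found 65 genes among 16593 named genes on the array, of which 40 encode proteins of the large (60S) subunit or their paralogs and 25 those of the small (40S) subunit. They were read by 83 probes, and each gene was represented by its probe with the highest mean raw signal over the 19 arrays. Membership went by names only, while the probe of each gene was chosen by its measured signal.

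Ribosomal proteins assemble with ribosomal RNA in the nucleolus, and nearly all of them are needed in equal numbers in every ribosome. Many of their transcripts begin with a tract of C and U letters, the 5′ terminal oligopyrimidine tract, through which mTOR signalling controls their translation. Growing and dividing cells make many ribosomes, and ribosomal protein transcripts are among the most abundant in such cells.

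The study asked, as its title has it, how the microRNAs let-7 and miR-125 act together in the formation of astrocytes. It used glial progenitor cells (GPCs) derived from embryonic stem cells that carry 1 conditional (floxed) and 1 deleted allele of Dgcr8, a gene needed to process microRNA precursors. Undifferentiated flox/delta GPCs (3 arrays) were kept in N2 medium with the growth factors EGF and FGF. Differentiated flox/delta GPCs (3 arrays) had these factors withdrawn and received B27 and 1% serum. Dgcr8 knockout (KO, delta/delta) GPCs had both alleles deleted after tamoxifen at 1 uM for 16 h and at 100 nM for 16 h, and they were measured undifferentiated in hybridization 1 (3 arrays, also called mock in the labels) and, in hybridizations 2 and 3, after a mock treatment (4 arrays), with let-7 (3 arrays) or with miR-125 (3 arrays). The labels list tamoxifen for the KO arrays only, so the drug and the loss of Dgcr8 cannot be told apart. They do not say how many cell lines or clones were used, nor which member of either microRNA family was given. P-values therefore measure the spread between these arrays.

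Mean raw signal per array was 298 to 474 in hybridization 1, 1429 to 1523 in hybridization 2 and 756 to 868 in hybridization 3, and 11788 to 13129 of 25697 probes were detected. Hybridization 1 was normalized apart from hybridizations 2 and 3, so levels are compared within each set only. The probe for Dgcr8 fell by 0.52 ± 0.13 (SE) on the log2 scale in KO cells of hybridization 1 (limma adjusted p = 0.0047), and whether it lies in the deleted part was not determined here. Of 12 progenitor markers 10 were detected on all undifferentiated flox/delta arrays, while all 5 microglia markers were undetected on every array of hybridization 1. The 2 arrays of hybridization 2, mock replicate 1 and let-7 replicate 1, stood apart for several members, and the mock array was the outlying one of 4 for 9 of 58 members checked.

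To show what the transcription start looks like, 30 bases around it are given for 7 members that the results turn on, from the RefSeq promoter table of build GRCm38.p6. Each runs from 15 bases before to 15 bases after the start that RefSeq gives, 5′ to 3′ on the transcribed strand, and capitals mark the longest run of C and T letters in these 30 bases (for Rpl22 the first of 2 equal runs). The marked run lies before the annotated start in 4 of them (Rplp0, Rpl4, Rpl22 and Rps15a), across it in Rpl27a and after it in Rpl13a and Rpl22l1, so it is a stretch of letters and not a mapped tract at the end of a transcript. The first 3 fell in differentiation, Rpl27a and Rpl22 fell in KO cells, Rpl22l1 is the paralog of Rpl22, and Rps15a was the member that rose.
Rpl13a, chr7:45128731-45128760, minus strand: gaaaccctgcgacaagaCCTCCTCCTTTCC
Rplp0, chr5:115559452-115559481, plus strand: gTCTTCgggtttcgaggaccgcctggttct
Rpl4, chr9:64173372-64173401, plus strand: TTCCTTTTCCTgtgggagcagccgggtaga
Rpl27a, chr7:109519180-109519209, plus strand: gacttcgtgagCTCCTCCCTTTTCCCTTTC
Rpl22, chr4:152324421-152324450, plus strand: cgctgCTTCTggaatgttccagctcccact
Rpl22l1, chr3:28805493-28805522, plus strand: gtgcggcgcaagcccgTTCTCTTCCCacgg
Rps15a, chr7:118116133-118116162, minus strand: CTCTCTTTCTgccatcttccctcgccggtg

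A run of at least 8 letters that were all C or T, searched on the transcribed strand only and within 30 bases of the start on either side, was present in 29 of the 56 members with an entry in the table (51.8%). It was present in 6965 of 27025 genes of the whole table (25.8%). Where a gene had several entries, as 9 members did, the one with the longest run was kept. Members that fell in differentiation held it in 14 of 31 cases (45.2%) and tested members without a call in 10 of 17 (58.8%). Rpl27a, with a longest run of 20 letters in that window, and Rpl22, with one of 5, both fell in KO cells.

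Transcripts of the ribosome fell when flox/delta GPCs differentiated. Of 57 members that were bright enough to test, 35 fell and 1 rose, and 51 had a difference below 0. Over all 9382 genes of this comparison 28.4% fell and 29.1% rose, so the members fell in 61.4% of cases against a background that was even. Their median log2 difference was -0.33, and that of all genes tested was -0.01. The fall touched both subunits, with 21 of 34 large-subunit genes lower (median -0.39) and 14 of 23 small-subunit genes lower and 1 higher (median -0.28). The 3 arrays of each group did not overlap for 43 of the 57 members, against 62.3% of all genes. At an unadjusted p under 0.05 there were 37 members (64.9%) and 61.7% of all genes. The other 8 members were not tested because fewer than 3 arrays detected them: Rpl6, Rpl14, Rpl17, Rplp2, Rps23, the retrogene Rps23rg1, and the paralogs Rpl3l and Rpl39l.

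Rpl13a, which sits on the surface of the large subunit and can also leave it to silence certain inflammatory transcripts, fell furthest. Its log2 signal was 11.66, 11.47 and 11.81 on the undifferentiated arrays and 10.33, 10.30 and 10.27 on the differentiated arrays. Every differentiated array lay more than 1 log2 unit below every undifferentiated one, a fall of 2.54-fold (log2 difference -1.35 ± 0.12, SE, limma adjusted p = 1.67e-06). Rpl4, whose protein lines the exit tunnel for the growing peptide, went from 10.90, 11.09 and 11.05 to 9.79, 9.93 and 9.78. This was a fall of 1.18 ± 0.09 with tight replicates on both sides (adjusted p = 4.92e-07). Rpl7a fell by 0.96 ± 0.13 (11.60, 11.54 and 11.97 against 10.67, 10.90 and 10.64), and Rpl29, a small basic protein of the large subunit, fell by 0.95 ± 0.10 (11.66, 11.78 and 11.59 against 10.76, 10.57 and 10.87).

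The stalk of the large subunit, which recruits elongation factors, is built from Rplp0 at its base and from Rplp1 and Rplp2. Rplp0 read 9.78, 9.71 and 9.72 in undifferentiated cells and 8.33, 8.74 and 8.50 in differentiated cells. It fell by 1.21 ± 0.11 (adjusted p = 2.97e-06), with no overlap between the groups. Rplp1 read 14.18, 14.24 and 14.18 against 14.03, 14.03 and 14.13, a log2 difference of -0.14 ± 0.08 that did not pass (adjusted p = 0.196). The proteins of 1 stalk thus gave very different values on this array, and Rplp2 was not tested.

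On the reported probes the largest falls of the small subunit were smaller than those of the large one. The shares that fell were alike, 60.9% and 61.8%, and a further probe of Rps24, described below, gave -1.96. Rps3a1, a protein near the messenger RNA exit, read 9.49, 9.58 and 9.79 against 9.05, 8.73 and 8.55 and fell by 0.84 ± 0.13 (adjusted p = 0.000167). Rps6, the substrate of S6 kinase, fell by 0.63 ± 0.08, Rps15 by 0.64 ± 0.09 and Rps10 by 0.61 ± 0.10. Rps19, mutated in the human disorder Diamond-Blackfan anaemia, fell by 0.25 ± 0.09 (adjusted p = 0.0323). That call ended with median scaling (-0.40, adjusted p = 0.172), with the 6 arrays fitted alone (-0.25), and when undifferentiated replicate 1 (-0.22) or 2 (-0.22) or differentiated replicate 1 (-0.22) or 2 (-0.26) was left out. Rpsa, also known as the laminin receptor, was dim and did not pass (-0.26 ± 0.17, adjusted p = 0.209).

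Rps15a, a protein of the small subunit body, was the only member that rose. Its log2 signal was 7.15, 7.47 and 7.56 in undifferentiated cells and at least 7.74 on each differentiated array (mean 7.89 ± 0.13, SD, n = 3), a rise of 0.50 ± 0.12 (adjusted p = 0.00427) without overlap. With median scaling in place of quantile normalization the call was lost (0.47, adjusted p = 0.0979). The other 5 members with a value above 0 were Rpl22, Rpl23, Rps12, Rps14 and Rps21. Their differences ran up to 0.11, and none passed.

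Several members that bind Mdm2, the ubiquitin ligase of p53, have been studied as sensors of failed ribosome assembly. Rpl5 differed by -0.23 ± 0.11 (adjusted p = 0.103), and without differentiated replicate 1 it passed (-0.33, adjusted p = 0.0306). Rpl23 differed by 0.11 ± 0.10 (adjusted p = 0.398). Rpl11, and likewise Rpl7, Rpl26 and Rps27a, were not analysed here.

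**Figure D1:**
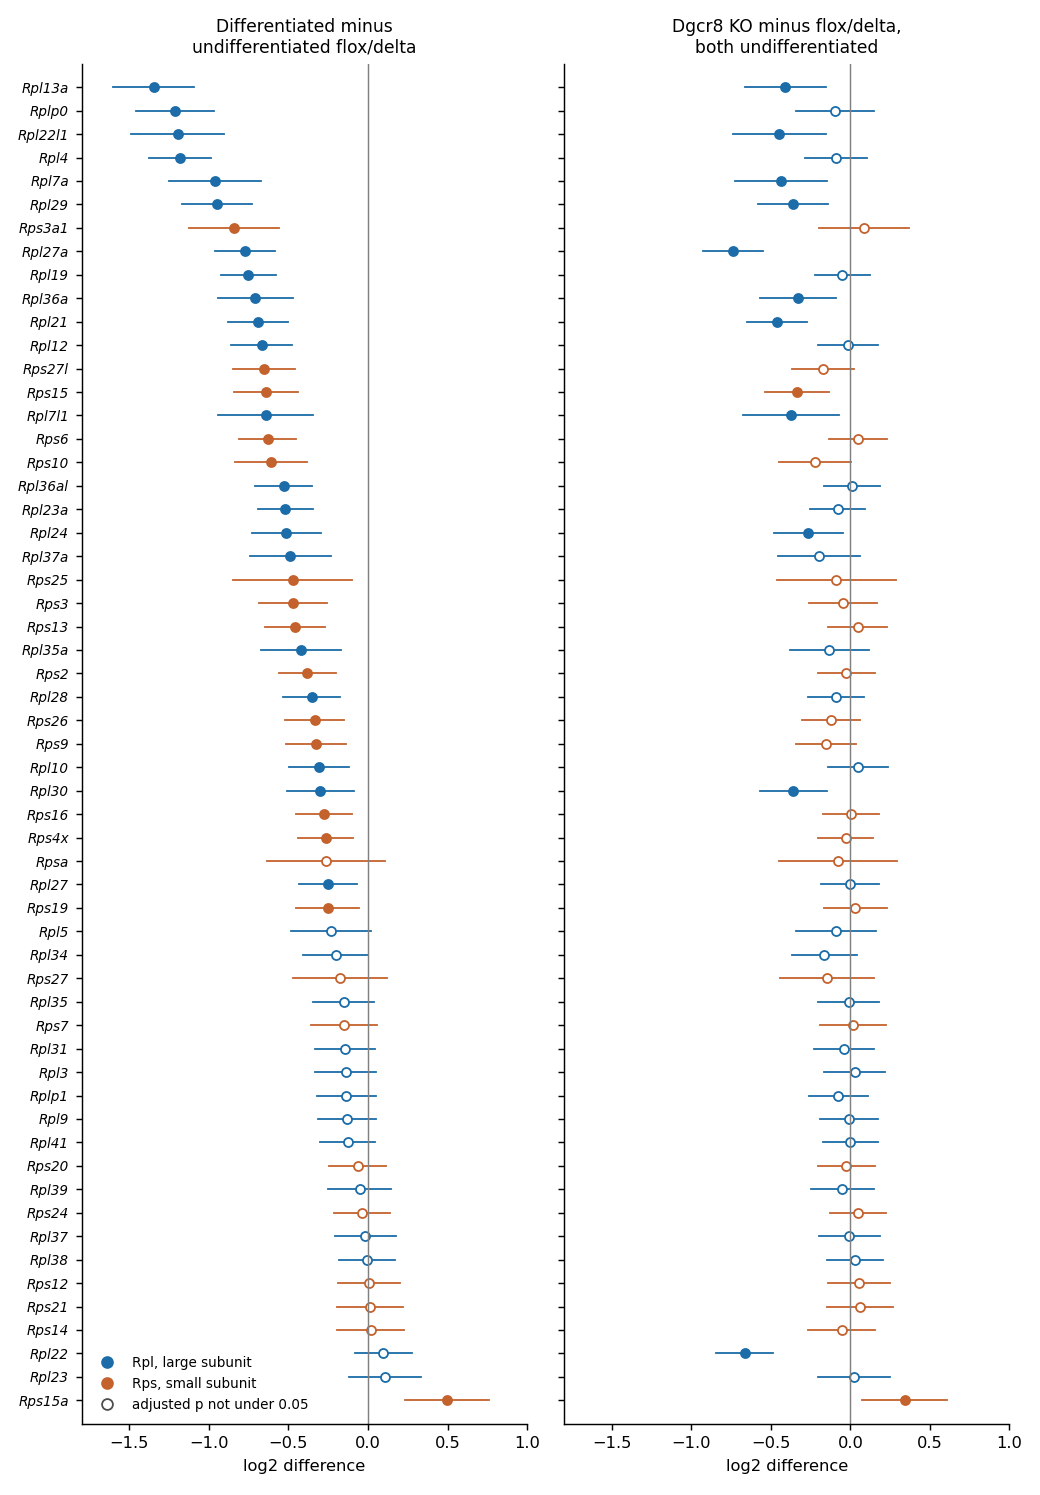
Log2 difference (x axis) of each of the 57 tested ribosomal protein genes (rows) for differentiated minus undifferentiated flox/delta cells, left, and KO minus flox/delta cells, right, with 95% confidence intervals as lines and filled points at adjusted p under 0.05. In differentiation 35 filled points lie below 0 and 1 above, while in KO cells 12 lie below 0 and most others sit near it.

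Marker genes of several cell types moved in the same comparison. All 8 tested markers of dividing cells fell (median log2 difference -3.84), and their summed linear signal went from a range of 11968 to 12938 down to 802 to 839. Of 10 astrocyte markers 9 rose, their summed signal going from 11225 to 12453 up to 43282 to 47154, and all 6 tested oligodendrocyte markers rose. Of 11 progenitor markers 5 rose and 4 fell, and of 6 neuron markers 3 rose and 1 fell. Microglia and endothelial markers gave no tested gene. In bulk RNA, fewer cells of a type and less RNA per cell cannot be told apart, and the part of these cell changes in the fall of ribosomal transcripts was not tested.

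The measured size of the fall depended on which probe was read. Members were grouped by the mean log2 signal of the probe in hybridization 1, with limits of 12 and 13 that were chosen after the values were seen. The 16 members below 12 had a median difference of -0.76 with 13 lower and 1 higher, the 10 between the limits a median of -0.50 with 7 lower, and the 31 above 13 a median of -0.15 with 15 lower. Non-member genes at the same limits had medians of -0.01, -0.05 and -0.13. Of these genes 2554 of 9086, 62 of 185 and 16 of 54 fell, and 2679, 44 and 7 rose. Above 13 the members and the other genes thus had close medians. With median scaling the medians of the members were -0.88, -0.66 and -0.32, so the brightest members had a fall that was more than 1.5 times larger than under quantile normalization. On the undifferentiated arrays 16 to 17 of the 50 brightest probes belonged to members, and 12 to 13 did on the differentiated arrays.

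More than 1 probe was detected for 10 members in this comparison, and in 9 of them the next probe, which was dimmer, gave a lower value. The median was -0.29 over the reported probes and -1.01 over the next ones. Rps24, a small-subunit protein also mutated in Diamond-Blackfan anaemia, differed by -0.04 on its bright probe, where the differentiated arrays lay within the undifferentiated range of 13.48 to 13.60, and by -1.96 ± 0.11 on its other probe (adjusted p = 4.69e-08 in a fit of every probe). Rpl38, known in mice for its part in translating Hox transcripts, gave -0.01 and -0.91, Rpl31 gave -0.15 and -1.05, and Rps19 gave -0.25 and -1.02, the last from a probe near background. Rpl23 gave 0.11 and 0.06 on its brighter probes and -0.95 on its dimmest. Only Rpl7l1 went the other way, with -0.64 and -0.13. In the fit of every probe 9 of these 11 further probes fell, against 28.1% of all probes. Ribosomal protein genes have many processed pseudogenes and near-identical copies, and which transcripts each probe reads could not be checked here, so the value of any single member is uncertain to this extent.

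**Figure D2:**
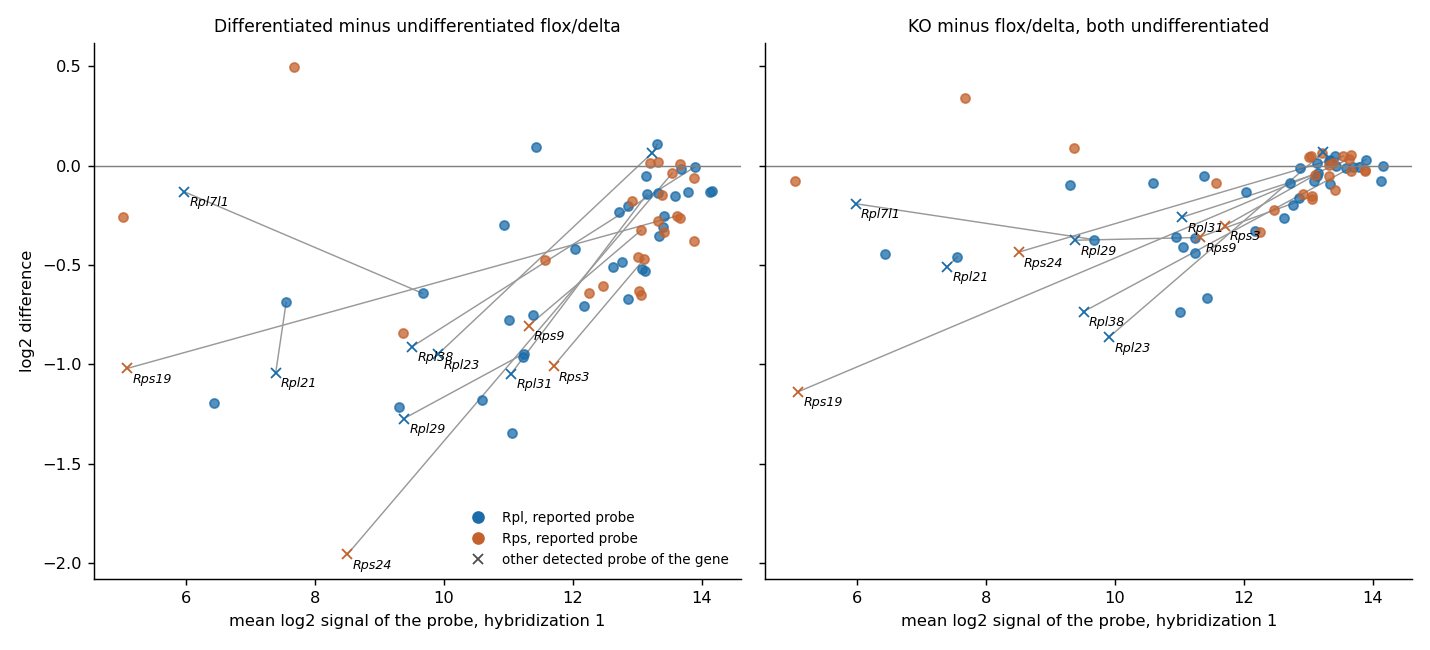
Log2 difference (y axis) against the mean log2 signal of the probe over the 9 arrays of hybridization 1 (x axis), for differentiation, left, and for KO cells, right; circles are the reported probes, crosses further detected probes of the same gene, and grey lines join probes of 1 gene. In differentiation the reported probes above 13 lie between -0.65 and 0.11 and the dimmer ones reach -1.35, and in KO cells those above 13 lie between -0.17 and 0.06. In differentiation the dimmest probes of Rps24, Rpl38, Rpl31 and Rpl23 lie well below the reported ones.

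Paralogs stand in for the main protein in some tissues. All 4 that were tested fell in differentiation. Rpl22l1 read 6.97, 7.01 and 6.99 in undifferentiated cells and 5.58, 6.01 and 5.78 in differentiated cells, a fall of 2.29-fold (95% interval of the log2 difference -1.49 to -0.90, adjusted p = 1.39e-05). Its partner Rpl22, whose protein binds and represses Rpl22l1 transcripts in mice, read 11.60, 11.64 and 11.60 against 11.65, 11.69 and 11.79 (0.10 ± 0.08, adjusted p = 0.336). Rps27l, a target gene of p53, fell by 0.65 ± 0.09 while Rps27 gave -0.18 ± 0.13 (adjusted p = 0.281). Rpl36al fell by 0.53 ± 0.08 and Rpl36a by 0.71 ± 0.11. Rpl7l1 fell by 0.64 ± 0.14, while its dimmer probe did not pass (-0.13). The partner genes Rpl10 and Rps4x fell by 0.31 ± 0.09 and 0.27 ± 0.08, calls that ended with median scaling (adjusted p = 0.113 and 0.171), and Rpl3 and Rpl39 did not pass (-0.14 and -0.05).

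After loss of Dgcr8 in undifferentiated cells 13 ribosomal protein genes passed, none of them read by a probe with a signal above 13. Of 57 tested, 12 fell and 1 rose, against 26.9% of 9107 genes that fell and 28.3% that rose. Counted in either direction this was 22.8% of the members and 55.1% of all genes. The median log2 difference was -0.05 for the members and 0.02 for all genes. Of the 12 that fell, 11 were large-subunit genes (11 of 34), and Rps15 was the 1 of 23 small-subunit genes. This split depended on the probe read. In the fit of every probe, dimmer further probes of Rps19 (-1.14, near background), Rps24 (-0.44) and Rps9 (-0.36) fell, while that of Rps3 (-0.30) did not pass. The groups did not overlap for 16 members, against 62.2% of all genes, and 13 members had an unadjusted p under 0.05, against 59.5%. This comparison shares its 3 control arrays with the differentiation comparison.

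Rpl27a, a large-subunit protein, had the lowest value. It read 11.43, 11.58 and 11.54 in flox/delta cells and 10.76, 10.78 and 10.80 in KO cells, a fall of 0.74 ± 0.08 (adjusted p = 2.50e-05), and in differentiated cells it read 10.65, 10.80 and 10.78. The undifferentiated KO arrays and the differentiated arrays thus lay at a like level for this gene, both below the undifferentiated flox/delta arrays. Rpl22 read 11.60, 11.64 and 11.60 in flox/delta cells and 10.93, 10.99 and 10.93 in KO cells. It fell by 0.66 ± 0.08 (adjusted p = 3.75e-05), with almost no spread within either group. Rpl21 fell by 0.46 ± 0.09, Rpl22l1 by 0.45 ± 0.13, Rpl7a by 0.44 ± 0.13 and Rpl13a by 0.41 ± 0.12. With median scaling these 4 lost their calls (adjusted p = 0.204 to 0.258), as Rpl22l1 did without KO replicate 1 or 3, Rpl7a without KO replicate 1 or flox/delta replicate 3, and Rpl13a without KO replicate 2 or flox/delta replicate 3. The paralog Rpl7l1 fell by 0.37 ± 0.14, a call that ended in 8 of 16 alternatives (adjusted p up to 0.445), 5 of them with 1 array left out. Rpl36al (0.01) and Rps27l (-0.17) did not pass.

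Rps15a rose here as well, by 0.34 ± 0.12 (7.80, 7.76 and 7.64 against 7.15, 7.47 and 7.56, adjusted p = 0.0324). The call was lost without flox/delta replicate 1 (0.22), without KO replicate 1 (0.31) or 2 (0.33), and with median scaling (0.43, adjusted p = 0.146), and with no filter on dim probes (adjusted p = 0.0526). With median scaling the members that fell went from 12 to 2, Rpl27a (-0.65, adjusted p = 0.0193) and Rpl22 (-0.57, adjusted p = 0.0422), and without flox/delta replicate 3 they went to 7. Of all genes 13.9% fell with median scaling and 24.6% without that replicate.

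The stalk genes Rplp0 (-0.10 ± 0.11) and Rplp1 (-0.08 ± 0.08) did not pass, nor did Rpl4 (-0.09), Rpl5 (-0.09), Rpl23 (0.02), Rps19 (0.03) and Rpsa (-0.08). By probe brightness the 16 members below 12 had a median of -0.36 with 9 lower and 1 higher, the 10 between 12 and 13 a median of -0.18 with 3 lower, and the 31 above 13 a median of -0.01 with no call. Of non-member genes below 12, 2378 of 8811 fell and 2536 rose. Of those between the limits 50 of 185 fell and 36 rose, and of those above 13, 6 of 54 fell and 2 rose. Few genes of any kind were called among the brightest, where most members lie. Dimmer further probes of Rps19, Rpl23 and Rpl38 fell by 1.14 ± 0.12, 0.86 ± 0.13 and 0.74 ± 0.11. Of 11 further probes 7 fell, against 25.8% of all probes. Among the markers, 3 of 8 of dividing cells rose, 8 of 10 of progenitors fell and 1 rose, all 4 tested of oligodendrocytes fell, and 5 of 8 of astrocytes fell and 1 rose, and their part in these values was not tested.

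**Figure D3:**
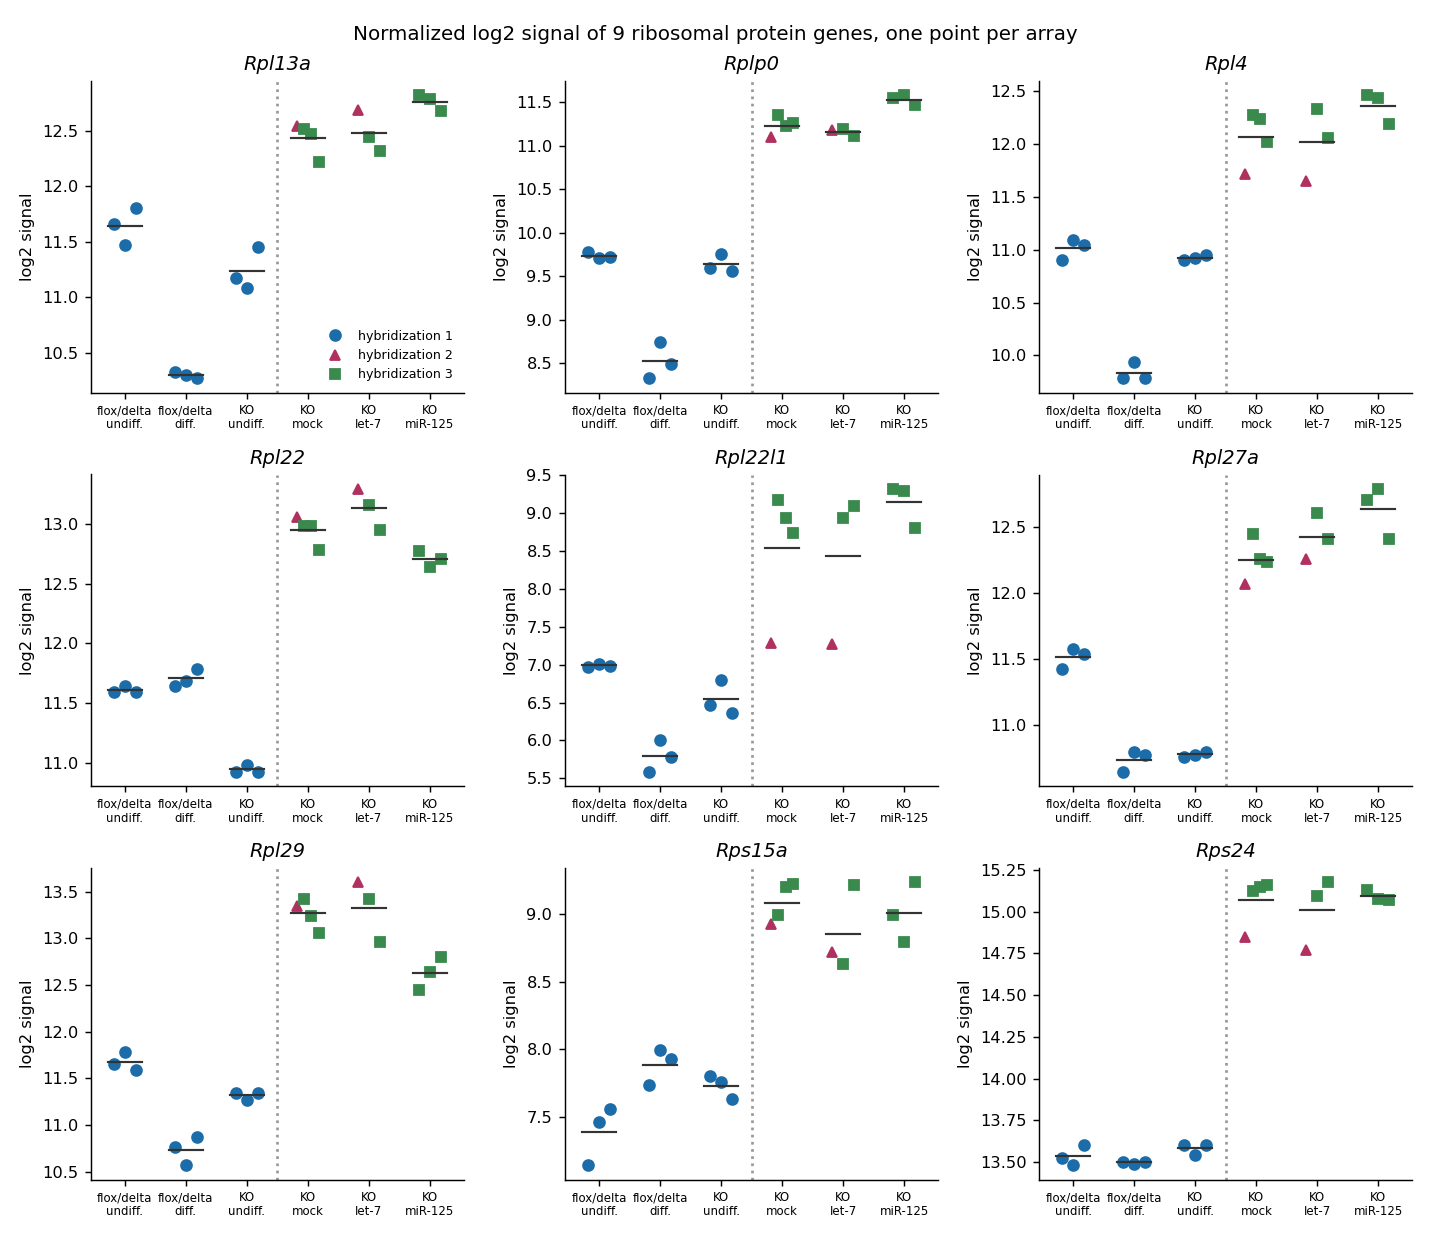
Normalized log2 signal (y axis) of 9 ribosomal protein genes in the 6 groups (x axis), with 1 point per array, shape and colour for the hybridization and a bar at the group mean; levels left and right of the dotted line were normalized apart and are not comparable. Rpl13a, Rplp0 and Rpl4 are lowest in differentiated cells, Rpl22 and Rpl27a are lower in KO cells than in undifferentiated flox/delta cells, and the hybridization 2 arrays lie below the others for Rpl22l1 and Rps24.

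The genes that build and use ribosomes were compared with the ribosomal proteins themselves. In differentiation, where 28.4% of all genes fell, 34 of 89 tested ribosome biogenesis genes fell (38.2%) and 4 rose, with a median of -0.28. Of 40 translation factors 24 fell and 3 rose (median -0.26), and of 71 mitochondrial ribosomal proteins 37 fell (52.1%) and 1 rose (median -0.30). With median scaling, where 17.4% of all genes fell, 18, 12 and 24 of these genes fell. The medians were then -0.29, -0.37 and -0.35 beside -0.45 for the cytosolic ribosomal proteins. Among them were Fbl, the fibrillarin methyltransferase of ribosomal RNA (-0.93 ± 0.09), Emg1, another ribosomal RNA methyltransferase (-0.96 ± 0.12), Gar1 (-0.96 ± 0.12), and Polr1c, a subunit shared by RNA polymerases I and III (-0.89 ± 0.10). Of the translation factors, Eif4b fell by 1.24 ± 0.10, Eif5a by 1.02 ± 0.08, Pabpc4 by 1.01 ± 0.13, and the elongation factor gene Eef1a1, detected on 2 of 3 differentiated arrays, by 0.96 ± 0.19.

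In KO cells, where 26.9% of all genes fell and 28.3% rose, the lists had unlike medians. Of 90 ribosome biogenesis genes 60 rose and 4 fell (median 0.50), while the ribosomal proteins had 1 higher and 12 lower. Rrp12, which takes part in the export of pre-ribosomes, rose by 1.53 ± 0.20, Rrp1b by 1.34 ± 0.24, the helicase gene Ddx27 by 1.31 ± 0.11, and Tsr1, an assembly factor of the small subunit, by 1.13 ± 0.18. With median scaling 46 biogenesis genes rose and none fell (median 0.58, with all genes at 0.09). Of 40 translation factors 8 rose and 9 fell (median 0.06), among them Eif1a (1.48 ± 0.16) and Eif1b (-1.18 ± 0.13), Etf1 (0.73 ± 0.11) and Eif4e (0.68 ± 0.19). Of 71 mitochondrial ribosomal proteins 37 fell and 11 rose (median -0.30), of which Mrps21 fell by 1.54 ± 0.09 and Mrps16 fell by 1.06 ± 0.09. With median scaling 11 of the 71 fell and 4 rose. Of all genes 13.9% fell and 18.7% rose in KO cells with that scaling. The difference between the lists was not tested.

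**Figure D4:**
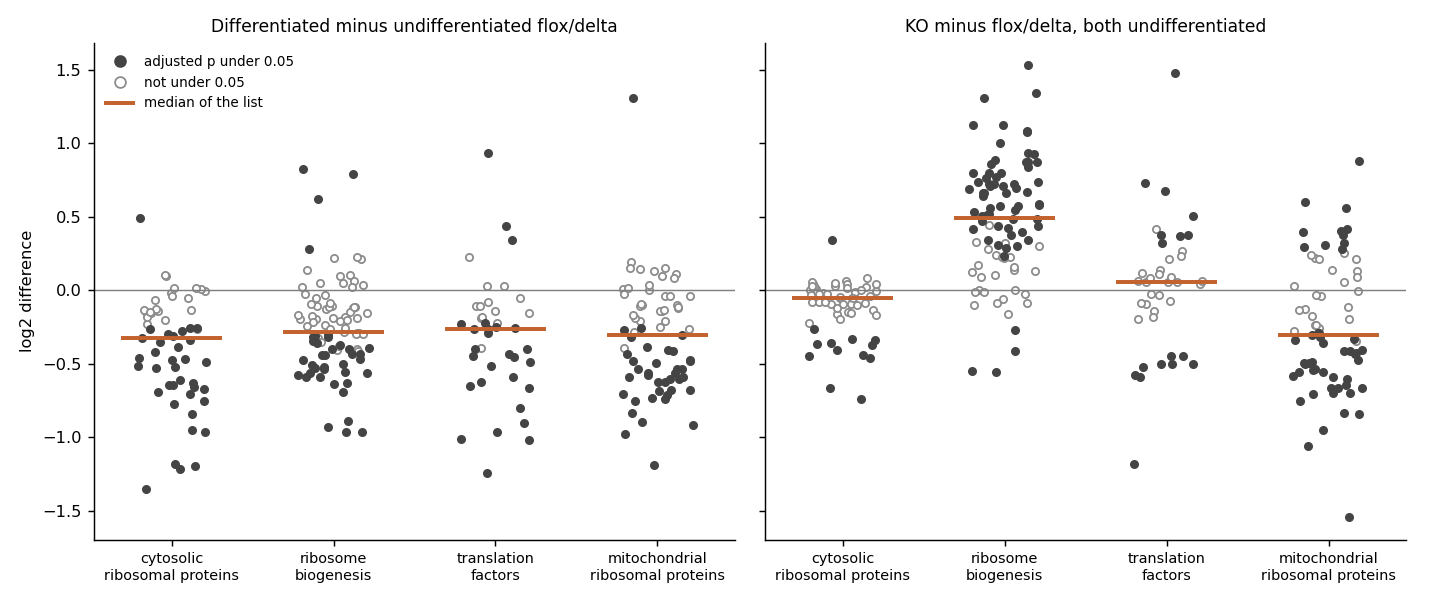
Log2 difference (y axis) of every tested gene of 4 lists (x axis) in differentiation, left, and in KO cells, right; filled points passed at adjusted p under 0.05 and bars are list medians. The 4 medians lie between -0.33 and -0.26 in differentiation, whereas in KO cells the biogenesis list lies at 0.50 and the ribosomal proteins at -0.05.

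The microRNAs given back to KO cells belong to families defined by a shared seed (bases 2 to 8, in capitals), through which they recognise targets. Mature mouse sequences from RefSeq are shown for 1 let-7 and 2 miR-125 members, since the labels name only the families.
mmu-let-7a-5p: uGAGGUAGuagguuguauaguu
mmu-miR-125a-5p: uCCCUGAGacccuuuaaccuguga
mmu-miR-125b-5p: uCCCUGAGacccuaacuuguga

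No ribosomal protein gene passed with let-7. Of 58 members tested against mock none rose or fell, and of all 9419 genes 3 (0.0319%) rose and none fell. At an unadjusted p under 0.05, limma gave none of the 58 members on their reported probes and 18.5% of all genes. In the fit of every probe, further probes of Rpl38 (0.37) and Rpl29 (0.30) lay just under that limit, and neither passed. The median member difference was 0.04, with 44 above 0 and 14 below, and that of all genes was -0.01. The 95% interval of the difference lay within 0.5 log2 units of 0 on both sides for 49 of 58 members, and within 1 for 57. The groups did not overlap for 4 members, against 13% of all genes. Within hybridization 3 alone, without the arrays that stood apart, none of 9157 genes passed, members included, and the member median was 0.04. Summed markers of dividing cells ran from 21226 to 25894 on let-7 arrays and from 27719 to 33905 on all mock arrays, and their part was not tested.

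Rpl27a had the smallest p. It read 12.07, 12.26 and 12.23 on the mock arrays of the comparison and 12.26, 12.60 and 12.41 on the let-7 arrays (0.23 ± 0.12, adjusted p = 0.345). The groups overlapped, but within the 3 numbered pairs the let-7 array was higher by 0.19, 0.34 and 0.17, and with the replicate number as a block the adjusted p was 0.232. Rpl22 read 13.05, 12.98 and 12.78 against 13.29, 13.15 and 12.95, a difference of 0.20 ± 0.13 (adjusted p = 0.451, or 0.281 with the block), with pair differences of 0.24, 0.18 and 0.17. Rps15a differed by -0.26 ± 0.17, Rpl22l1 by 0.11, Rplp0 by -0.03 and Rplp1 by 0.02. Rpl5, Rpl23 and Rps19 lay between -0.07 and 0.01, and the paralogs Rps27l, Rpl36al and Rpl7l1 between 0.01 and 0.16. Rpsa (0.42 ± 0.45) was detected on 2 let-7 arrays and 1 mock array, so its interval was wide.

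No member passed with miR-125 either. Of 57 tested none rose or fell, as in the whole table of 9308 genes (0%), and at an unadjusted p under 0.05 there were 4 members (7.02%), against 19.6% of all genes. The median was 0.04 for the members and -0.02 for all genes. The 95% interval lay within 0.5 log2 units of 0 for 47 of 57 members. The let-7 and miR-125 comparisons share mock arrays.

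On the reported probes the 4 members at unadjusted p under 0.05 were Rpl29, Rpl30, Rps27l and Rpl13a. Rpl29 read 13.42, 13.24 and 13.05 on the mock arrays of hybridization 3 and 12.44, 12.64 and 12.80 with miR-125. All 3 miR-125 arrays lay below all 3 mock arrays, with a difference of -0.61 ± 0.16 (unadjusted p = 0.00607, adjusted p = 0.125). Its other probe gave -0.41. Rpl30 read 11.79, 11.71 and 11.87 against 12.13, 12.07 and 12.23 (0.35 ± 0.12, adjusted p = 0.173), and Rpl13a read 12.52, 12.47 and 12.22 against 12.82, 12.79 and 12.68 (0.36 ± 0.13, adjusted p = 0.203). Rps27l differed by 0.35 ± 0.12. In the limma fit of every probe a further probe of Rpl38 gave 0.80 ± 0.15 (unadjusted p = 0.0012, adjusted p = 0.104), while its reported probe gave 0.02. Dim further probes of Rps19 (0.90) and Rpl23 (-0.58) also had an unadjusted p under 0.05. None of the 14 further probes passed. The groups did not overlap for 11 members, against 26.3% of all genes.

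Among other members with miR-125, Rplp0 differed by 0.25 ± 0.11 (adjusted p = 0.277) without overlap, and Rplp1 gave no difference (adjusted p = 0.991). Rpl22 differed by -0.21 ± 0.12 (adjusted p = 0.398) and Rpl22l1 by 0.19 ± 0.20. Rpl14, dim on these arrays, had the value farthest from 0 (0.85 ± 0.38, adjusted p = 0.281). With the replicate number as a block in the limma fit, the smallest adjusted p-values were nearer the threshold. They were 0.0614 for Rpl14, 0.0838 for Rpl30, 0.0890 for Rpl13a and 0.0926 for Rpl29, and no member passed. Rpl5, Rpl23 and Rps19 lay between -0.05 and -0.03. Mesenchymal marker genes summed to 4213 to 7513 on miR-125 arrays and 1083 to 3239 on all mock arrays, hybridization 2 included. Of these 8 markers 1 was detected on all miR-125 arrays and 5 on none, and of 2 tested none passed. Markers of dividing cells summed to 17532 to 24443 on miR-125 arrays. The part of either marker list in the member values was not tested.

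The 2 microRNAs were set against each other in 1 fit of the 10 arrays with a term for the hybridization. None of 58 members passed, against 0.680% of 9411 genes higher with let-7 and 0.871% lower. At an unadjusted p under 0.05 there were 4 members (6.90%) and 19.2% of all genes. Rpl29 was higher with let-7 by 0.62 ± 0.18 (95% interval 0.21 to 1.02, adjusted p = 0.114) and Rpl22 by 0.36 ± 0.12 (0.09 to 0.63, adjusted p = 0.153). Rplp0 was lower with let-7 by a log2 difference of -0.34 ± 0.11 (adjusted p = 0.145), as was Rpl13a (-0.35 ± 0.13, adjusted p = 0.181). The groups did not overlap for 6 members, against 20.2% of all genes. No member held after adjustment over all genes. Further probes of Rpl29 (0.71), Rpl31 (0.29), Rpl38 (-0.42) and, near background, Rps19 (-0.93) had an unadjusted p under 0.05, and none passed in the fit of every probe. For 48 of 58 members the interval lay within 0.5 log2 units of 0.

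**Figure D5:**
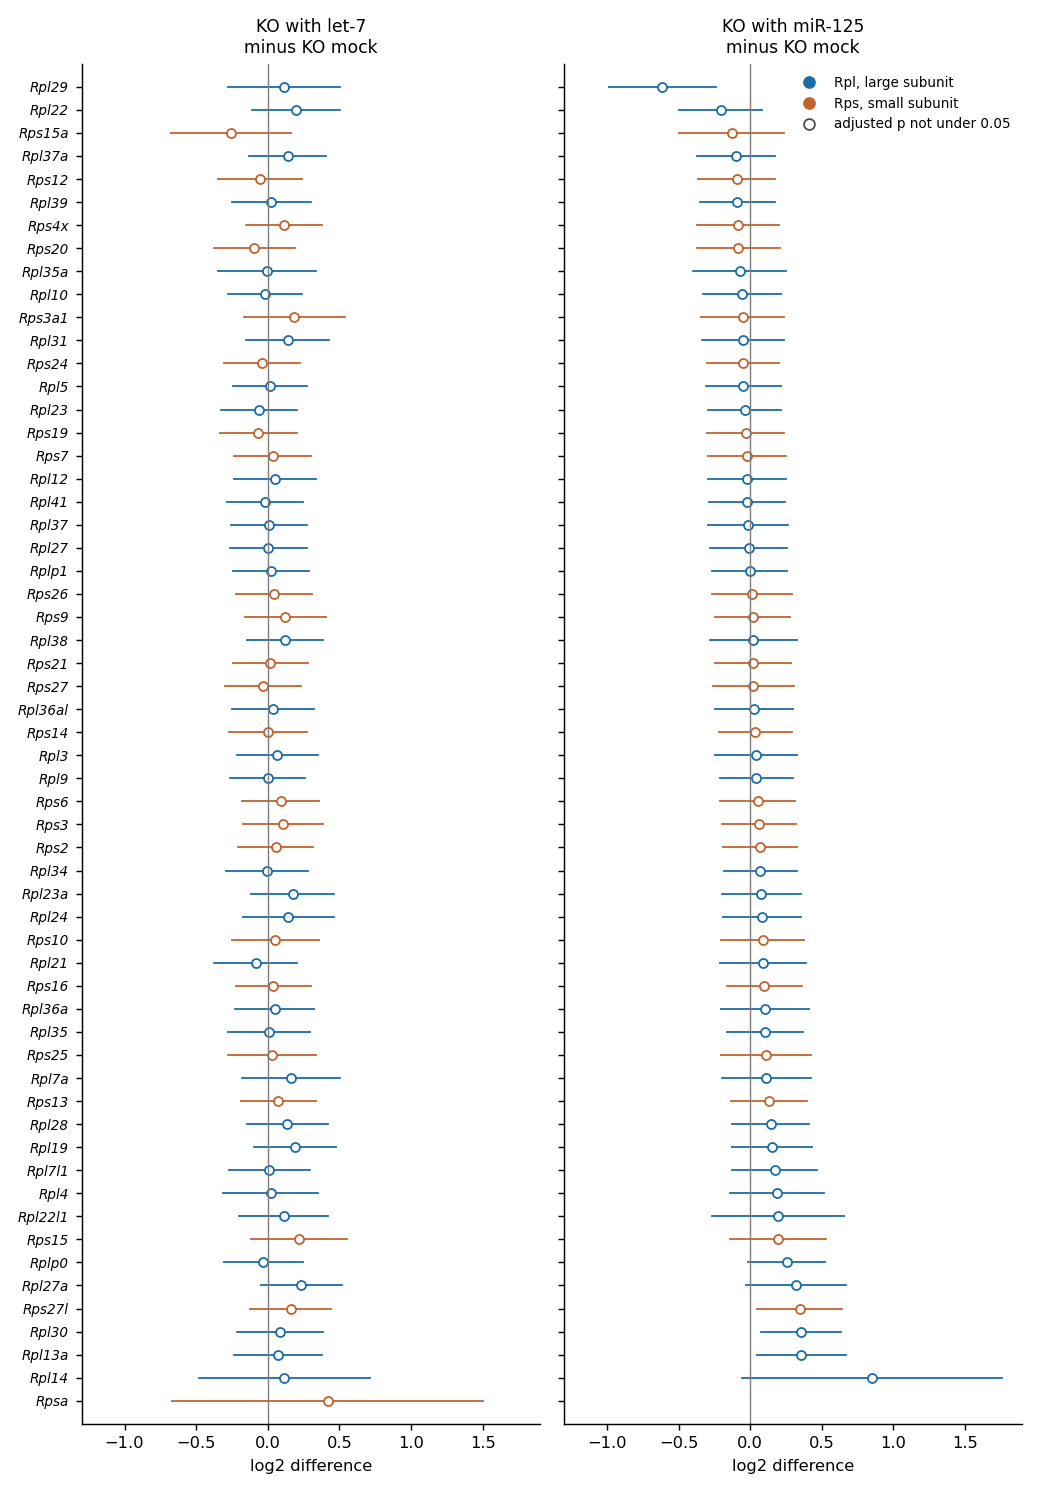
Log2 difference (x axis) of each tested ribosomal protein gene (rows, in the order of the miR-125 values) for KO cells with let-7, left, or with miR-125, right, minus mock, with 95% confidence intervals as lines. All points are open, since no member passed, and Rpl29 is the gene farthest below 0 with miR-125 (-0.61).

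The members also took a sizeable share of all signal. After background correction the 65 reported probes held 6.45% ± 0.75 (SD, n = 3) of the summed signal of undifferentiated flox/delta arrays, 5.21% ± 0.33 (n = 3) of differentiated arrays and 5.81% ± 0.80 (n = 3) of undifferentiated KO arrays. The highest differentiated array (5.59%) lay below the lowest undifferentiated flox/delta array (5.71%), whereas the KO arrays (5.14% to 6.69%) overlapped both groups. These shares were not normalized between arrays. In each group the array with the lowest mean raw signal had the highest share. That array had 7.21% at 330 in undifferentiated flox/delta cells, 6.69% at 304 in KO cells and 5.59% at 298 in differentiated cells. On the later arrays the shares were 5.87% ± 1.23 with mock (n = 4), 5.83% ± 1.35 with let-7 (n = 3) and 6.60% ± 0.21 with miR-125 (n = 3). The 2 arrays of hybridization 2, which had the highest mean raw signal, had 4.04% and 4.29%, below every array of hybridization 3. The part of array brightness in these shares was not tested.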

How the data were processed

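Per the file headers, the deposited non-normalized table holds, for 25697 probes and 19 arrays (24 sample entries, 5 of them repeats), the probe's intensity and its detection p-value. The authors also deposited 1 normalized table per comparison, in which, as far as the values show, the first pair holds intensity and the second pair log2 signal. These served as an alternative only. The submitters' processing notes name limma without a role. Replicates 1 and 3 of the undifferentiated groups are numbered the other way round in the deposited normalized tables, and the non-normalized numbering was kept.

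Signals were corrected for background from the detection p-values and quantile normalized with neqc (offset 16) in limma 3.58.1 under R 4.3.3, for the 9 arrays of hybridization 1 and the other 10 separately. Genes needed detection p under 0.05 on at least 3 arrays compared. Differences are on the log2 scale ± SE, from limma's moderated linear model (two-sided), with p adjusted by Benjamini-Hochberg across every gene tested and a threshold of 0.05, and levels are log2 signal per array. The fit was tested on simulated data. For let-7 the controls were the hybridization 2 mock array and the hybridization 3 mock arrays numbered 2 and 3 (with a hybridization term), and for miR-125 all mock arrays of hybridization 3. Replicate numbers paired the microRNA arrays (correlations of deviations 0.65 to 0.87 for let-7 and 0.37 to 0.56 for miR-125), and per the labels they mark separate tamoxifen treatments. Both mock arrays numbered 1 may hold the same RNA.

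Members and lists were chosen with earlier results of these data known. Named are the 6 furthest members each way past the threshold, stalk proteins, paralogs with partners, Mdm2 binders, Rps19 and Rpsa, and up to 4 genes per other list (ribosome biogenesis, translation factors, mitochondrial ribosomal proteins, growth regulators). Other named members were singled out after their values were seen. Symbols came from the platform annotation, were updated through RefSeq (23962 of 23978 named probes matched), and 1719 probes had no symbol.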

Additional observations from a re-analysis of the deposited data

Results flagged for a closer look

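Among the 4 mock arrays, 10 of 58 members had 1 array farther from the rest than Dixon's 95% limit for 4 values. On 4 like arrays that level would give about 2.9. These arrays come from 2 hybridizations and are shared by all members, so the count is a description and not a test. In 9 of the 10 members it was replicate 1 of hybridization 2, the only mock array of that hybridization. Its log2 signal lay below the other 3 arrays for Rpl23 (14.47, others 14.89 to 14.97), Rpl37a (13.68, others 14.51 to 14.67), Rpl39 (14.20, others 14.80 to 14.87), Rpl5 (13.63, others 14.68 to 14.75), Rps21 (14.38, others 14.87 to 14.90), Rps24 (14.85, others 15.12 to 15.16) and Rps3a1 (10.64, others 12.21 to 12.49). It lay above them for Rps13 (14.83, others 14.34 to 14.36) and Rps9 (14.92, others 14.44 to 14.49). For Rpl36al it was replicate 3 of hybridization 3 that stood apart (14.30, others 14.14 to 14.15). The let-7 array of hybridization 2 read close to that mock array for Rpl5 (13.66), Rps3a1 (10.93) and Rps24 (14.77). Within hybridization 3 alone, none of 9157 genes passed for let-7, members included.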

How the results depend on the processing

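In differentiation the count of members lower stayed between 24 and 39 over 16 alternatives (main 35), and the median was -0.45 with median scaling, -0.27 with no filter on dim probes, -0.42 with the mean of all probes, -0.46 with the dimmest kept probe (an alternative chosen after seeing the data), and -0.34 to -0.29 with an array left out (-0.29 without differentiated replicate 3). Of all genes 17.4% fell with median scaling, where 24 members fell, and 28.7% with the mean of all probes, where 39 fell. Median scaling gave 0 members higher in differentiation (18.8% of all genes). In KO cells it gave 0 higher and 2 lower (18.7% and 13.9% of all genes), and the absence of a filter gave 0 higher (14.0%). Leaving out 1 array gave 0 to 1 higher and 7 to 11 lower in KO cells. Of all genes 24.7% to 26.6% then rose and 23.8% to 25.2% fell. Rpl23 turned to -0.26 (mean of probes) and -0.95 (dimmest probe) in differentiation and to -0.26 and -0.86 in KO cells, where Rps19 turned to -0.55 and -1.14. The miR-125 median was 0.065 with median scaling. No member passed in the let-7, miR-125 or direct comparison under any of the 19, 17 and 15 alternatives run, while the genes called in the whole table ranged from 0 to 250, from 0 to 362 and from 0 to 688 (main 3, 0 and 146). Median scaling lowered all calls in differentiation from 5398 to 3402 and in KO cells from 5021 to 2976. A replicate block changed no member count (35 lower in differentiation, 12 in KO cells, 0 elsewhere), and it raised the genes called in the direct comparison from 146 to 688. Replicate numbers of hybridization 1 did not pair the arrays (correlations -0.08 to 0.19 in differentiation and 0.08 to 0.24 for KO). Of 1548 values of 24 named members under alternatives, 37 lost their call and 1 gained one. The 6 counted as reversed were those of Rpl23 and Rps19 given above. Other values without a call also changed sign and were not counted, such as Rpl22 in differentiation (-0.03 to 0.13) and Rpl7l1 with miR-125 (-0.21 to 0.22). Dim members near background are measured less well. For members with a signal above 13 the median in differentiation went from -0.15 to -0.32 with median scaling, so their values depend on the scaling. Having 3 arrays a group limits all values. The causes were not tested.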

Other observations

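In differentiation 5 of 21 tested growth regulators rose and 5 fell, 23.8% each way, below the 29.1% and 28.4% of all genes (median 0.01). Eif4ebp1, which encodes an inhibitor of the cap-binding protein eIF4E, fell by 2.08 ± 0.13 (limma adjusted p = 9.35e-08), Ddit4, an inhibitor of mTOR signalling, by 1.19 ± 0.12, and Mycl, a Myc family gene, rose by 1.29 ± 0.17. Mxd3, a partner of Max, passed and was not above background on any differentiated array. In KO cells 5 rose and 7 fell (33.3%, against 26.9% of all genes, median 0.09). Ddit4 fell by 1.13 ± 0.12, Maf1, a repressor of RNA polymerase III, by 0.90 ± 0.09 and Mxd4 by 0.85 ± 0.19, while Ppan, a factor of ribosome assembly, rose by 0.78 ± 0.17. With let-7 or miR-125 none of the 20 tested growth regulators, 90 ribosome biogenesis genes, 40 translation factors and 71 mitochondrial ribosomal proteins passed in the limma fit. In the direct comparison Pabpc4 (-1.02 ± 0.16, adjusted p = 0.0381) and the mitochondrial Mrps27 (-0.79 ± 0.15, adjusted p = 0.0466) were lower with let-7 than with miR-125.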
